A study of Arabidopsis thaliana with 24 samples.

Results

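Seedlings that lack a working COP9 signalosome show traits of light-grown plants in darkness, and the comparison described here asks where 7-day-old dark-grown csn mutants still differed from wild type that had grown in light. The samples were the 9 dark arrays of 3 mutant lines, each line weighted equally, and the 3 wild type (WT) light arrays, 12 of the 24 arrays of the series. Each line had 3 dark arrays. One line was csn5 (csn5a-2 csn5b), labelled as mutated in both genes of its subunit, and the others were csn4-1 and csn3-1. The WT light labels call those seedlings the CSN4-1 wild type in Col, while the WT dark labels say only Col wild type. Light-grown arrays of the 3 mutant lines and dark WT arrays, 3 per group, served as context. RNA came from whole seedlings, about 80 mg of tissue per sample, and was measured on Affymetrix ATH1 arrays. Per the design text, the 3 replicates of each group were biological and independent.

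The COP9 signalosome is a protein complex that takes the ubiquitin-like protein NEDD8 off the cullins of ubiquitin ligases, and so keeps these ligases cycling. In dark-grown Arabidopsis, ligases that include COP1 destroy transcription factors that promote light-type growth, among them HY5 and its relative HYH. Other cullin ligases act in hormone responses, including the auxin response, in which they destroy Aux/IAA repressors. A seedling grown in light opens its cotyledons, builds chloroplasts and stops living on its seed reserves.

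Of the mutated genes, CSN5B alone had a probe set that named it and no other gene. Its signals were 1790.2, 1897 and 1573 in the csn5-labelled dark arrays, 110.0, 123 and 119 in WT light, 229.7, 234 and 188 in csn3-1 dark and 205, 247 and 146 in csn4-1 dark. The csn5-labelled arrays were thus the highest, although their label gives CSN5B as mutated. The difference from WT light was 3.42 on the log2 scale (SE 0.20, limma adjusted p = 2.73e-13). Where the probes lie relative to the mutation was not given in the sources used here, so the value does not check the label, and the line is called csn5-labelled throughout.

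Scaled signals of at least 100 were found for 60.3% to 76.8% of probe sets per array, and arrays of one group correlated at 0.918 to 0.939 in csn3-1 and csn4-1 dark, 0.969 to 0.974 in csn5-labelled dark and 0.988 in WT light. The ratio of the 3' to the 5' actin control, a measure of RNA quality that rises when RNA is broken, was 3.73 to 4.82 in WT light and 9.04 to 31.8 in the dark mutants, so that the groups did not overlap. It was 9.04 to 12.2 in the csn5-labelled dark arrays, 17.4 to 31.8 in csn3-1 dark and 17.7 to 20.6 in csn4-1 dark. Values from a fit with this ratio as a covariate are given beside the genes described below whose call they change. The WT light arrays and the light csn4-1 arrays also carry sample identifiers of an earlier range than all dark arrays, so that any batch tied to this range and the groups compared cannot be told apart. Where it helps, light csn4-1 against WT light is given as a comparison inside that range.

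Dark mutants differed from WT light at 3923 of the 18751 probe sets tested, or 20.9%. Of these, 2191 (11.7%) were higher and 1732 (9.24%) lower in the mutants. A call needed a limma adjusted p below 0.05 together with a log2 difference of 1 or more in size. Taken alone, csn3-1 had 2570 probe sets higher (13.7%) and 1937 lower (10.3%), or 24% in all. In csn4-1 they were 3227 (17.2%) and 1760 (9.39%), or 26.6%. In the csn5-labelled line they were 1626 (8.67%) and 1723 (9.19%), or 17.9%. The 3 lines share the WT light arrays. The 9 dark mutant arrays did not overlap the WT light arrays in 7218 probe sets (38.5%), lying above them in 4083 (21.8%) and below in 3135 (16.7%). In 2362 probe sets (12.6%) the call was made in the mean and in each line in 1 direction and the arrays did not overlap, with 1229 (6.55%) higher and 1133 (6.04%) lower.

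The median over all probe sets was 0.17 on the log2 scale, so the zero line sits slightly low for the mutants. After quantile normalization, which moved that median to 0.01, 1585 probe sets were higher and 1964 lower, so the share of higher calls went from 55.9% to 44.7%. It turned in csn3-1 as well, from 57.0% to 45.5% with 1843 higher and 2210 lower, and in csn4-1, from 64.7% to 44.2% with 1840 higher and 2319 lower. In the csn5-labelled line it was 48.6% before and 44.8% after. With the actin ratio as a covariate the counts were 1560 and 1518. 

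By the same rule, dark mutants differed from light-grown mutants at 377 probe sets (2.01%), 148 higher (0.789%) and 229 lower (1.22%). In csn3-1 and the csn5-labelled line alone, whose dark and light arrays lie in 1 identifier range, 384 probe sets (2.05%) were called, 153 higher (0.816%) and 231 lower (1.23%). WT light differed from WT dark at 3609 probe sets (19.2%), 1777 higher (9.48%) and 1832 lower (9.77%). Light mutants differed from WT light at 3857 (20.6%), 2130 higher (11.4%) and 1727 lower (9.21%). Light csn4-1 alone differed from WT light at 4520 (24.1%), 2716 higher (14.5%) and 1804 lower (9.62%). Dark mutants differed from WT dark at 4729 (25.2%), 2539 higher (13.5%) and 2190 lower (11.7%). Over all probe sets tested, the mean correlation of a dark mutant array with the WT light arrays was 0.788 to 0.870 and with the WT dark arrays 0.745 to 0.794, and it was higher with WT light in 9 of 9 arrays. WT light arrays correlated with WT dark arrays at 0.844 to 0.847 on the same scale.

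**Figure D1:**
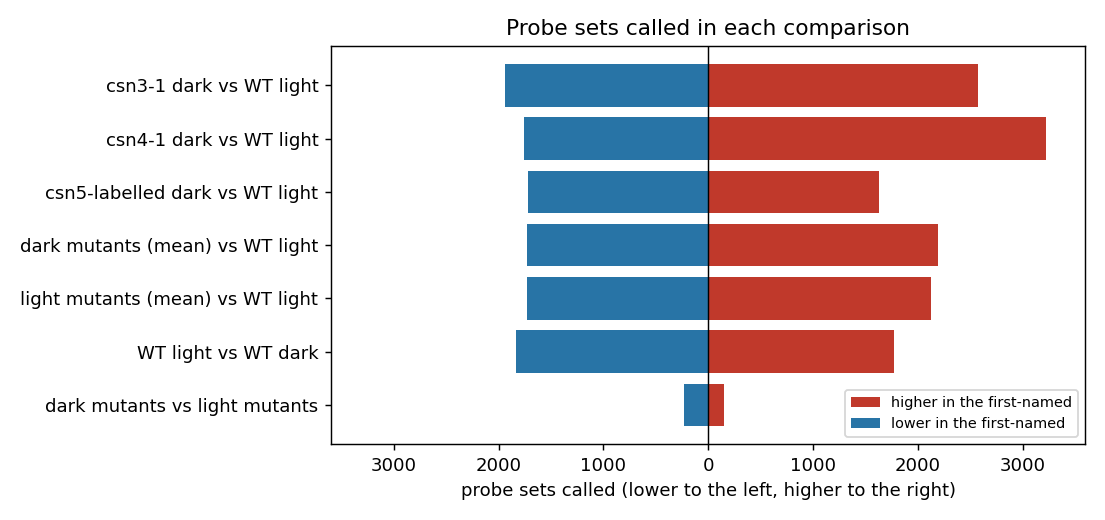
Number of probe sets called by limma in 7 comparisons, with those lower in the first-named group to the left and those higher to the right. Dark mutants against WT light gave 2191 higher and 1732 lower, and dark against light mutants 148 and 229.

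Nuclear genes of the photosynthetic machinery that were called lay below the level of light-grown WT. Of the 8 measured nuclear genes for antenna and photosystem subunits, 4 were lower, 0 higher and 4 not called, with a median log2 difference of -1.05 against 0.17 over all probe sets. Each list count here and below stands beside 11.7% higher and 9.24% lower over all probe sets tested. Light-grown mutants had 5 of these 8 genes lower than WT light, at a median of -1.08, and 0 were called between dark and light mutants. In the dark mutants the gene furthest from WT light was LHCB4.2, which encodes a minor antenna protein of photosystem II. Its signals were 20195, 20194 and 22690.1 in WT light and 8957, 7417 and 9325 in WT dark, against 658 to 2196 (median 1759.8) in the dark mutants. All 9 dark mutant arrays lay below both WT groups, and the difference from WT light was -3.76 on the log2 scale (SE 0.18, limma adjusted p = 1.86e-15). Dark mutants were also lower than WT dark for this gene, by a log2 difference of -2.47. The mutants grown in light were also below WT light, with mean signals of 1786 ± 166 (SD, n = 3) in csn3-1, 1695 ± 464 in csn4-1 and 1323 ± 310.1 in the csn5-labelled line.

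PSAN, a lumenal subunit of photosystem I, had signals of 12533, 12916 and 12701 in WT light, 2694, 2488 and 2666 in WT dark and 1245 to 2847 (median 2287) in the dark mutants. The mutants overlapped WT dark and lay below WT light, with a difference of -2.61 on the log2 scale (SE 0.19, limma adjusted p = 1.37e-11). LHCB4.1, another antenna gene of this kind, had signals of 20334, 18868 and 22928 in WT light and 5533 to 12450.1 (median 10603) in the dark mutants, a difference of -1.15 on the log2 scale (SE 0.17, limma adjusted p = 4.02e-06) that was not called when csn3-1 was left out of the mean. PSBY, a small photosystem II subunit, differed by -1.33 on the log2 scale (SE 0.17, limma adjusted p = 3.82e-07). LHCB4.3 had a difference of 0.25 and was not called. Among 6 genes of the thylakoid, 3 were lower, including TAPX, the thylakoid ascorbate peroxidase, at -1.89, and TROL at -1.41.

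In the Calvin cycle, which fixes carbon dioxide, 2 of 3 measured genes were lower and 1 was not called. Light-grown mutants had 3 of 3 lower than WT light, at a median of -1.68, and 0 were called between dark and light mutants. SBPASE, the sedoheptulose bisphosphatase, had signals of 10818, 10433 and 11517 in WT light, 539, 604 and 829.5 in WT dark and 2517 to 5264 (median 3816) in the dark mutants. The mutants stood between the WT groups without overlapping either. They were -1.59 on the log2 scale (SE 0.18, limma adjusted p = 3.72e-08) against WT light and higher than WT dark by 2.38. PRK, the phosphoribulokinase, had signals of 11206, 11769 and 12185 in WT light, 2426, 1717 and 2321 in WT dark and 1807 to 3713 (median 2751) in the dark mutants. It lay close to WT dark, with a difference of -2.10 on the log2 scale (SE 0.18, limma adjusted p = 2.73e-10) from WT light. RCA, which activates Rubisco and serves here as the leaf marker with a probe set of its own, had signals of 23856, 25716 and 27231 in WT light, 2869, 1017 and 2181 in WT dark and 8086 to 19545 (median 16115) in the dark mutants. Its difference from WT light was -0.84 on the log2 scale (SE 0.29, limma adjusted p = 0.0193), which missed the fold threshold. It was -1.41 and called after quantile normalization, and 0.35 once the actin ratio was a covariate. Photorespiration salvages the product of Rubisco's reaction with oxygen, and 2 of its 3 measured genes were lower. In light-grown mutants 3 of 3 were lower than in WT light, at a median of -1.53. Between dark and light mutants 0 were called, at a median of 0.50. HPR, the hydroxypyruvate reductase of peroxisomes, differed from WT light by -1.46 on the log2 scale (SE 0.17, limma adjusted p = 7.33e-08).

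In chlorophyll synthesis, 4 of 9 measured genes were lower and 0 higher, with a median of -0.88. Light-grown mutants against WT light likewise had 4 of 9 lower, at a median of -0.88, and 0 were called between dark and light mutants. PORB encodes an enzyme that reduces protochlorophyllide with the help of light. Its signals were 8089, 9026 and 9845 in WT light, 3035, 1951 and 3257 in WT dark and 1033 to 2252 (median 1439) in the dark mutants. The dark mutants did not overlap WT light, and the difference was -2.55 on the log2 scale (SE 0.15, limma adjusted p = 1.55e-13). CHLM, a magnesium protoporphyrin methyltransferase, had signals of 7981, 7052 and 8647 in WT light and 1472 to 2963 (median 2659) in the dark mutants, a difference of -1.72 on the log2 scale (SE 0.14, limma adjusted p = 1.02e-10). CHLI2, a subunit of magnesium chelatase, and HEME2, a uroporphyrinogen decarboxylase, were lower by log2 differences of -1.47 and -1.53. The 5 others, HEMA2, GSA1, HEMB1, HEME1 and AT1G74470, ran from -0.88 to -0.39 and were not called. With the actin ratio as a covariate, LHCB4.2, PSAN, PORB, CHLM, SBPASE and PRK remained lower, at -3.40, -2.37, -2.18, -1.47, -1.51 and -1.69.

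**Figure D2:**
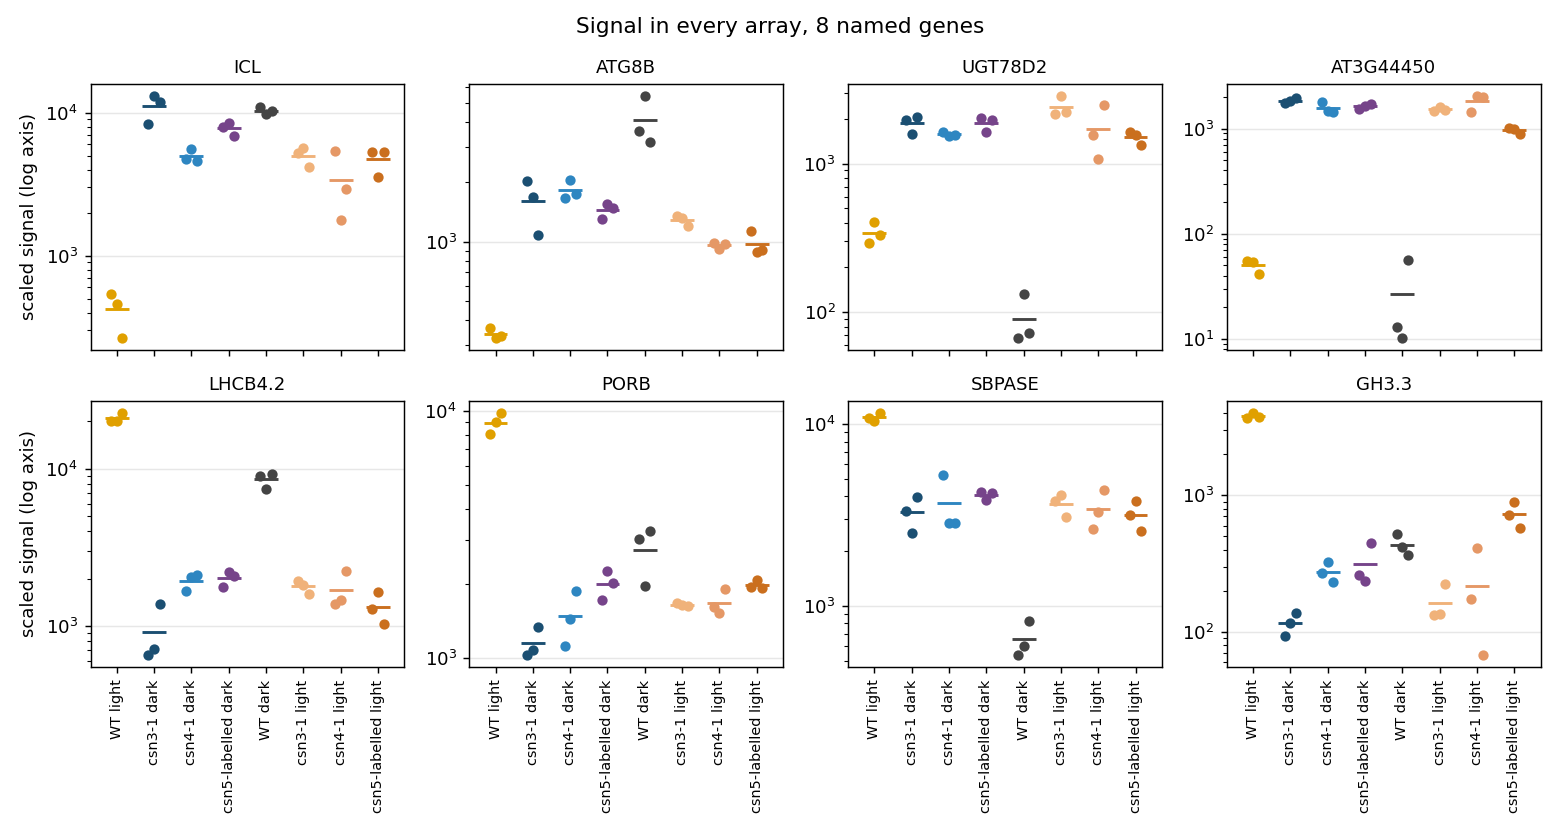
Scaled signal (log axis) of 8 genes in every array, with 1 point per array, 3 per group, and a bar at the group mean. ICL, ATG8B, UGT78D2 and AT3G44450 were higher in all dark mutant arrays than in WT light, and LHCB4.2, PORB, SBPASE and GH3.3 were lower.

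Transcripts encoded in the chloroplast went the other way. Of 69 measured chloroplast-encoded genes, 42 were higher in the dark mutants than in WT light and 0 were lower, with a median log2 difference of 1.22. Of all probe sets tested, 11.7% were higher. By complex, 9 of 15 psb genes, 7 of 10 ndh genes, 3 of 6 pet genes, 2 of 5 psa genes and 2 of 6 atp genes were higher. These encode parts of photosystem II, the NDH complex, the cytochrome b6f complex, photosystem I and the ATP synthase. The 4 rpo genes, for the plastid's own RNA polymerase, were all higher, as were 6 of 8 rps genes and 2 of 7 rpl genes for ribosomal proteins.

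petN, a small subunit of the cytochrome b6f complex, had the highest difference in this group. Its signals were 814, 529 and 777 in WT light, 17486, 38968 and 12579.9 in csn3-1 dark, 28336, 18487 and 41074 in csn4-1 dark and 5368, 11719 and 12806 in csn5-labelled dark. All 9 exceeded WT light, by 4.55 on the log2 scale (SE 0.50, limma adjusted p = 2.48e-08), and the lines differed widely among themselves. In WT dark the signals were 1728, 6477 and 1791, and the highest of these came from the array whose actin ratio was 29.4 against 3.45 and 7.62 in the other 2. rpoB, a subunit of the plastid RNA polymerase, had signals of 623, 483 and 680.2 in WT light and 3150.1 to 28007 (median 9328) in the dark mutants, a difference of 4.19 on the log2 scale (SE 0.50, limma adjusted p = 9.74e-08). ndhF and petD differed by 4.15 and 4.31. At the other end, atpB had a difference of -0.27 and rpl36 of -0.33, and neither was called. The mitochondrial gene nad1, for a subunit of complex I, had signals of 130.3, 150.5 and 84.5 in WT light and 785 to 8590.4 (median 3000.2) in the dark mutants, a difference of 4.29 on the log2 scale (SE 0.51, limma adjusted p = 9.30e-08).

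Across the 3 dark mutant groups these organelle values were lowest in the csn5-labelled line, which also had the lowest actin ratios. The median over the 69 chloroplast-encoded genes, taken for each array relative to the WT light mean, was 1.16 to 1.88 in csn3-1 dark, 1.52 to 2.40 in csn4-1 dark and 0.27 to 0.99 in csn5-labelled dark, in log2 units. The csn4-1 array with the lowest ratio, 17.7, had the highest median of its group, 2.40, against 1.55 and 1.52 at ratios of 20.4 and 20.6. The csn3-1 array at 31.8 had 1.44, against 1.88 at 19.7 and 1.16 at 17.4. In WT dark it was -0.88, -0.51 and 0.32 at ratios of 3.45, 7.62 and 29.4. In light csn4-1 it was 0.63, 1.51 and 2.28 at ratios of 11.6, 17.0 and 45.9. In WT dark and light csn4-1 it thus rose in the order of the ratio, and in the other groups it did not. With the ratio as a covariate 13 of the 69 genes were called higher, 0 lower, and the median was 0.44. petN, rpoB, ndhF and nad1 were then at 2.85, 2.53, 2.41 and 2.54, and clpP, a protease subunit, lost its call at 0.75. Without the 3 dark mutant arrays whose ratio was over 20, csn4-1 kept only the dark array with the median of 2.40. Counts from that fit are not given. Of the 2 chloroplast lists, photosynthesis and gene expression and other, 26 of 45 and 16 of 24 genes were higher in the dark mutants. In light csn4-1 against WT light, 31 of 45 and 17 of 24 were higher, and the light csn4-1 arrays had actin ratios of 11.6 to 45.9.

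**Figure D3:**
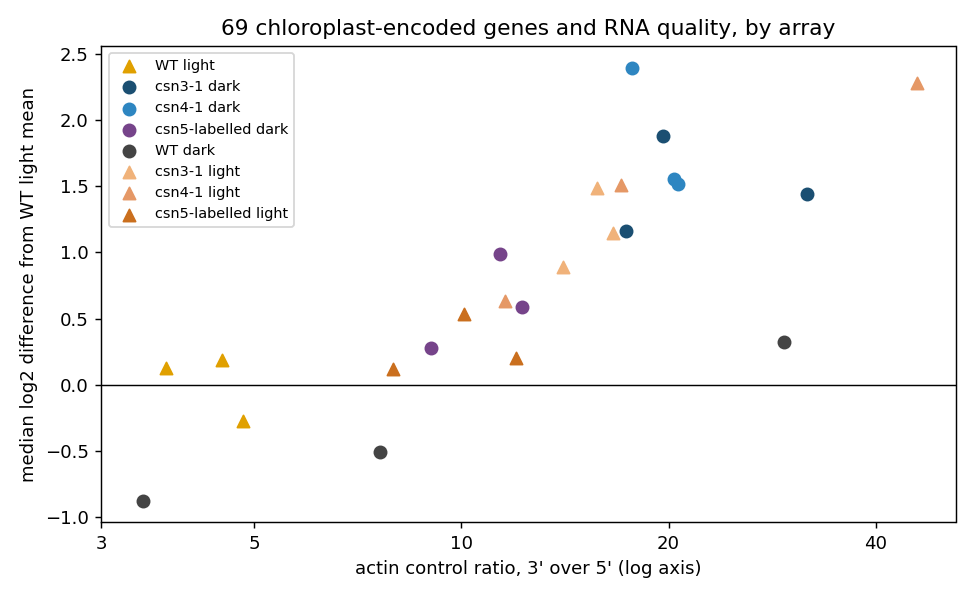
Median log2 difference of 69 chloroplast-encoded genes from the WT light mean (y axis) against the actin 3' to 5' ratio (x axis, log scale), 1 point per array, circles dark and triangles light. The WT light arrays lie at ratios of 3.73 to 4.82 and the dark mutant arrays at 9.04 to 31.8, with higher medians in csn3-1 and csn4-1 than in the csn5-labelled line.

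Of 25 genes listed for flavonoid and anthocyanin synthesis, 7 were measured. Most of these were higher in the dark mutants than in WT grown in light. Of 7 measured members 5 were higher, 0 lower and 2 not called, with a median of 1.94, and 5 were higher with the actin ratio as a covariate, where the median was 1.66. UGT78D2, a flavonoid 3-O-glucosyltransferase, had signals of 291, 405 and 332 in WT light, 67.4, 133 and 71.9 in WT dark and 1538 to 2073 (median 1634) in the dark mutants. The mutants exceeded both WT groups in 9 of 9 arrays, and the difference from WT light was 2.22 on the log2 scale (SE 0.18, limma adjusted p = 7.28e-11). DFR, the dihydroflavonol reductase at the branch to anthocyanins, had signals of 89.8, 196 and 126 in WT light and 553 to 876 (median 639) in the dark mutants, a difference of 1.94 on the log2 scale (SE 0.20, limma adjusted p = 1.08e-08). DFR was still higher in light-grown mutants, and dark minus light mutants was -1.46. UF3GT, a glycosyltransferase of anthocyanins, had signals of 36.9, 24.2 and 27.9 in WT light and 316 to 723 (median 393) in the dark mutants, a difference of 2.61 on the log2 scale (SE 0.18, limma adjusted p = 6.10e-12). UGT78D1 had a difference of 0.08 and AT5MAT, an anthocyanin malonyltransferase, of 0.75, and neither was called.

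Of 46 listed photoreceptors and regulators of photomorphogenesis, only 2 had a probe set that named them alone. HYH, a bZIP factor that promotes light-type growth with HY5, was one of them. Its signals were 195, 170.4 and 174 in WT light, 49.4, 117 and 83.7 in WT dark and 671 to 1342 (median 849) in the dark mutants. All dark mutant arrays exceeded all WT arrays, with a difference of 1.97 on the log2 scale (SE 0.19, limma adjusted p = 2.63e-09) from WT light. The other, FHL, which acts with phytochrome A, had a difference of -0.65 on the log2 scale (SE 0.31, limma adjusted p = 0.0806) and was not called. FHL had signals of 13.9 to 210.2 in the dark mutants. Its value was -1.09 without the 3 arrays of high actin ratio, where csn4-1 kept only the dark array at a ratio of 17.7.

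Auxin response genes that were called were lower. Of 6 measured, 4 were lower, 0 higher and 2 not called, with a median of -2.42, while 9.24% of all probe sets tested were lower. GH3.3 encodes an enzyme that joins auxin to amino acids and is induced by auxin. Its signals were 3677, 4024 and 3764 in WT light, 522, 417 and 367 in WT dark and 93.3 to 445 (median 235) in the dark mutants. Every dark mutant array lay below every WT light array, by -3.87 on the log2 scale (SE 0.25, limma adjusted p = 1.12e-12). WES1, another enzyme of the GH3 family, had signals of 3622, 3006 and 3186 in WT light, 3019, 2110.5 and 2008 in WT dark and 189 to 592 (median 486) in the dark mutants. It was below both WT groups, and the difference from WT light was -2.90 on the log2 scale (SE 0.21, limma adjusted p = 7.07e-12). HAT2, a homeodomain leucine zipper factor induced by auxin, had signals of 1783, 2043 and 1651 in WT light and 7.3 to 253 (median 86.5) in the dark mutants, a difference of -3.84 on the log2 scale (SE 0.33, limma adjusted p = 2.71e-10). IAA29, one of the Aux/IAA repressors, was lower by a log2 difference of -1.94, and IAA20 and IAA30 were at 0.79 and -0.63 without a call. In light csn4-1 against WT light the differences were -4.07 for GH3.3, -3.75 for WES1 and -3.12 for HAT2.

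Genes of cell wall loosening that were called were lower too. Expansins loosen walls, and of 16 measured members of the family 7 were lower and 0 higher, with a median of -0.58. EXPA8 had signals of 977, 653 and 861 in WT light, 1702, 1676 and 1379.7 in WT dark and 11.3 to 154 (median 58.2) in the dark mutants. The mutants overlapped neither WT group, and the difference from WT light was -2.87 on the log2 scale (SE 0.28, limma adjusted p = 3.23e-09). EXPB3 and EXPA4 were lower by -2.78 and -2.41. Of 8 measured xyloglucan enzymes, which cut and rejoin wall chains, XTH19 and XTH16 were lower, at -1.33 and -1.11, and 6 were not called. XTH16 was at -0.88 without csn3-1. Among 11 tubulin and kinesin genes, the beta-tubulin genes TUB5 and TUB6 were lower, at -2.19 and -1.32, and TUB6 moved to -0.91 with the actin ratio as a covariate.

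Markers of roots were lower in 4 of 5 measured members, with a median of -1.31. In whole seedlings, fewer cells of a type and less RNA per cell cannot be told apart. PYK10, a beta-glucosidase of root endoplasmic reticulum bodies, had signals of 16022, 16005 and 16784 in WT light, 20177, 22898 and 24448 in WT dark and 4253 to 8539 (median 6344) in the dark mutants, so that mutants did not overlap WT in light or darkness. Its difference from WT light was -1.38 on the log2 scale (SE 0.14, limma adjusted p = 7.87e-09). The jacalin-related lectins JAL22, JAL33 and JAL34 were lower as well, and the fourth measured lectin, EULS3, was at 0.13 without a call. JAL22 had signals of 3148, 3449.7 and 3218 in WT light, 11118, 12214 and 12067 in WT dark and 83.5 to 403 (median 257) in the dark mutants. It lay below WT light by -3.76 on the log2 scale (SE 0.32, limma adjusted p = 1.97e-10) and below WT dark by a log2 difference of -5.60. JAL33 and JAL34 were at -2.63 and -1.77. EXPA18, an expansin of root hairs, was lower by -1.29, and its adjusted p by limma was 0.083 with the actin ratio as a covariate. The part of root mass in the wall and lectin values was not tested. Of the stomatal genes SPCH, FMA and STOMAGEN, 0 of 3 were called by limma, and their differences were -0.56, -0.86 and -0.98, with limma adjusted p of 0.135, 0.0101 and 0.000332. FMA and STOMAGEN thus missed the fold threshold alone, and FMA was called after quantile normalization at -1.03. STOMAGEN, a peptide from mesophyll that promotes stomata, was called at -1.59 once the actin ratio was a covariate.

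Several genes of seeds and their reserves were higher than in WT light. ICL encodes isocitrate lyase of the glyoxylate cycle, by which seedlings turn seed oil into sugar. Its signals were 538, 459 and 267 in WT light, 11049.9, 9799 and 10205 in WT dark, 8292, 13146 and 11829 in csn3-1 dark, 4737, 5581 and 4578 in csn4-1 dark and 8000.0, 8453 and 6866 in csn5-labelled dark. All dark mutant arrays exceeded WT light, by 4.04 on the log2 scale (SE 0.22, limma adjusted p = 3.65e-14), and csn3-1 overlapped WT dark. Light-grown mutants also had high ICL, with means of 5012 ± 757 (SD, n = 3) in csn3-1, 3361 ± 1820.4 in csn4-1 and 4722 ± 997 in the csn5-labelled line. SDP1, a lipase of seed oil bodies, was at -0.58 and not called. The 3 measured seed maturation genes were higher, at 1.39 for AT3G01570, 1.39 for AT1G03890 and 1.01 for OLEO3, an oil body protein. OLEO3 lay close to the fold threshold and lost its call in several settings, among them quantile normalization, at 0.69. AT1G03890 and OLEO3 lost their calls with the actin ratio as a covariate, at 0.68 and 0.77. Taken alone, csn3-1 had 1 of the 3 genes called higher, against 3 in csn4-1 and 3 in the csn5-labelled line.

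Among 5 late embryogenesis genes, whose proteins protect cells that dry, 3 were higher and 1 was lower. LEA18 had signals of 218, 241 and 138 in WT light, 1528, 1603 and 1409 in WT dark and 787 to 3069 (median 1607) in the dark mutants, a range that took in the WT dark values, and it differed from WT light by 2.80 on the log2 scale (SE 0.28, limma adjusted p = 4.35e-09). AtLEA4-1 and LEA4-5 were at 1.53 and 1.31, and AT2G44060 at -1.06. The last was not called with the actin ratio as a covariate (-0.55), after quantile normalization (-0.98) or without csn4-1 (-0.80).

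Carbon starvation genes were called in both directions. Of 7 measured, 1 was higher, 3 were lower and 3 were not called. MCCA and MCCB, the subunits of an enzyme of leucine breakdown, differed in direction, with -1.40 for MCCA and 1.17 for MCCB. MCCA had signals of 2252, 1866 and 1902 in WT light, 8739, 5558 and 6836 in WT dark and 430.5 to 1140.5 (median 712) in the dark mutants. MCCB had signals of 1482, 1005 and 1079.6 in WT light, 5193, 7351 and 5673 in WT dark and 2068 to 4949.9 (median 2562) in the dark mutants. Both were higher in WT dark than in the dark mutants, while the mutants stood below WT light for one and above it for the other. IVD, an enzyme of leucine breakdown, was lower by -1.12. With the actin ratio as a covariate MCCB was at 0.74 and IVD at -0.68, and neither was called. AKINBETA1, a subunit of the energy-sensing kinase SnRK1, was lower by -1.87 on the log2 scale (SE 0.13, limma adjusted p = 2.93e-12).

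In the ATG8 family, which coats autophagosomes, 1 of 9 measured members was higher, 1 was lower and 7 were not called. Over all probe sets tested 11.7% were higher and 9.24% lower, so these counts are near those shares. ATG8B had signals of 366, 328 and 334 in WT light, 3632, 5453 and 3182 in WT dark and 1085 to 2048 (median 1665) in the dark mutants. It stood between the WT groups in all 9 arrays, above WT light by 2.06 on the log2 scale (SE 0.16, limma adjusted p = 2.31e-11). ATG8E had signals of 2599, 2283 and 2709 in WT light, 3133, 5133 and 3940.3 in WT dark and 706 to 1163 (median 841) in the dark mutants, and differed by -1.46 on the log2 scale (SE 0.14, limma adjusted p = 2.41e-09).

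Defence and stress genes gave mixed counts. Of 8 measured defence genes 2 were higher and 6 not called. AT2G43580, at 0.87, was not called here but was called at 1.66 with the actin ratio as a covariate. CHI, a chitinase, had signals of 99.2, 93.2 and 57.3 in WT light, 1864, 1518 and 2135 in WT dark and 451 to 1954 (median 1262) in the dark mutants. It exceeded WT light by 3.00 on the log2 scale (SE 0.27, limma adjusted p = 4.71e-10), and was higher still in light mutants, where dark minus light was -1.72. GRX480, a glutaredoxin of the salicylate response, was at 1.49. Of 3 measured oxidative stress genes 1 was higher, AT2G21640 at 2.89, 1 was lower, GSTU20, and GSTU25, at -0.61, was not called. GSTU20, a glutathione transferase, had signals of 3248, 3681 and 3593 in WT light, 138, 180.4 and 150.2 in WT dark and 33.9 to 286 (median 113) in the dark mutants. The dark mutants overlapped WT dark and were below WT light by -4.53 on the log2 scale (SE 0.26, limma adjusted p = 1.18e-13). Of 6 measured WRKY factors, WRKY53 was higher at 1.59, while WRKY22 and ZAP1 were lower at -1.23 and -1.18. ZAP1 was not called with the actin ratio as a covariate (-0.73, limma adjusted p = 0.153) or without csn4-1 in the mean (-0.99). EIN3, a transcription factor of ethylene signalling, was lower by -1.44. Of 15 cytochrome P450 genes 2 were higher, CYP71B26 at 2.38 and CYP71B24 at 1.21 (0.96 and not called after quantile normalization), and 2 were lower. CYP71B6, at 0.85, was called only in other settings, such as 1.01 with the actin ratio as a covariate. Of 4 genes of G2 and M phase, 0 were called by limma, with differences of 0.08 for BUBR1 to 0.76 for AUR3 and unadjusted p under 0.05 for 2 of them. These were AUR3 and AUR1, with limma adjusted p of 0.0034 and 0.0418, which missed the fold threshold alone. Over all 10616 tested probe sets naming 1 gene, 2029 (19.1%) were called, 1247 (11.7%) higher and 782 (7.37%) lower.

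**Figure D4:**
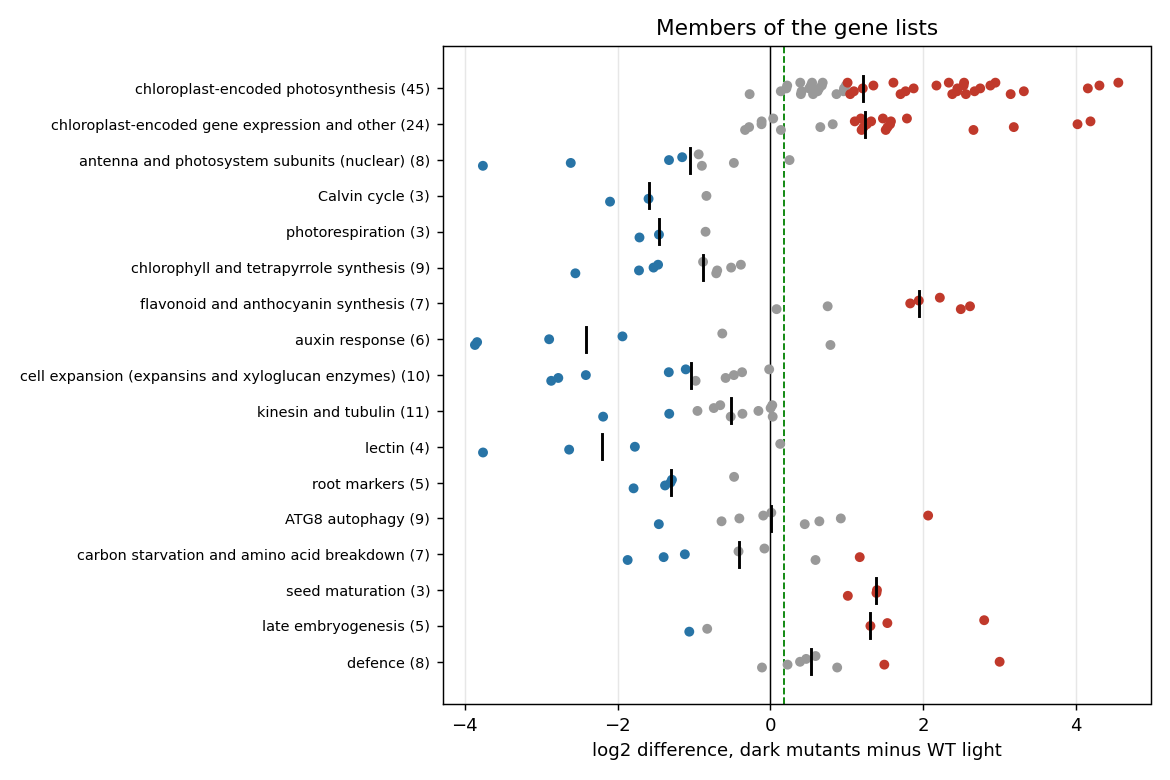
Log2 difference of dark mutants from WT light for each measured member of 17 gene lists (number of members in brackets), red if called higher, blue if called lower and grey if not called. Black bars mark list medians and the dashed line the median of all probe sets, 0.17. Members of the nuclear antenna, auxin, cell expansion and lectin lists that were called lie left of it, and those of the chloroplast-encoded and flavonoid lists right.

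Called probe sets were also placed by where WT dark lay, a description with no test. Among those higher in the dark mutants, WT dark was near WT light for 967 (44.1%), near the dark mutants for 333 (15.2%) and beyond the mutants by at least 1 log2 unit for 50, with WT light between for 78, WT dark between for 62 and 701 in no class. Among those lower, WT dark was near WT light for 589 (34.0%), near the dark mutants for 470 (27.1%) and at least 1 unit beyond the mutants for 110, with WT light between for 141, WT dark between for 54 and 368 in no class. Near means within 1 log2 unit, and the other group at least 1 unit away.

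Of the genes at the dark WT level, AT3G16670 had signals of 5391, 3989.9 and 4208 in WT light, 69.3, 86.6 and 81.3 in WT dark and 10.5 to 186 (median 90.4) in the dark mutants, a difference of -5.05 on the log2 scale (SE 0.31, limma adjusted p = 5.47e-13) from WT light. AT1G22690 had signals of 4904, 4191 and 3878 in WT light and 38.3 to 213 (median 139) in the dark mutants, and differed by -4.75 on the log2 scale (SE 0.26, limma adjusted p = 3.49e-14). AT2G33850 was lower by -4.62. Dark minus light mutants was 0.51, -0.58 and 0.01 for the 3 genes, and none of these passed the call.

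Of the genes with both WT groups within 1 log2 unit of each other, AT3G44450 had signals of 55.2, 54.1 and 41.9 in WT light, 13, 10.3 and 56.2 in WT dark and 1420.4 to 1947 (median 1692) in the dark mutants. WT signals lay under 100, the level used to filter probe sets, and the mutants far above it, with a difference of 4.10 on the log2 scale (SE 0.15, limma adjusted p = 1.50e-17) from WT light. In light csn4-1 against WT light it was 4.21. On the lower side, AT2G15960 had signals of 6621, 4530.2 and 4736 in WT light, 6228, 9282 and 10229.9 in WT dark and 281 to 794 (median 498) in the dark mutants, a difference of -3.37 on the log2 scale (SE 0.23, limma adjusted p = 3.63e-12).

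Where WT light lay between, AT2G25510 had signals of 6136, 5584 and 6000.4 in WT light, 179, 398 and 409 in WT dark and 40689 to 56080.0 (median 50564) in the dark mutants, so the dark mutants went past the WT light level by 3.03 on the log2 scale (SE 0.18, limma adjusted p = 3.60e-13). AT5G62210 had signals of 63.8, 92 and 94.6 in WT light, 2.4, 17.6 and 2.8 in WT dark and 1895 to 4510.3 (median 3107) in the dark mutants, a difference of 4.52 on the log2 scale (SE 0.18, limma adjusted p = 6.91e-17) from WT light. Its signals in both WT groups lay under 100, the filter level, so the order of WT light and WT dark is uncertain for it. AT4G12490 was in the same class at 3.82. AT2G05540 went past it downward, by -3.26 on the log2 scale (SE 0.22, limma adjusted p = 2.02e-12), from 4510.5, 4326 and 3574 in WT light and 16199, 14537 and 14997 in WT dark to 222 to 594 (median 375) in the dark mutants.

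Dark mutants lay between the WT groups for OSM34, an osmotin-like protein, with signals of 864, 949 and 745 in WT light, 9854, 10856 and 13857 in WT dark and 3893 to 7166 (median 5671) in the dark mutants. It was above WT light by 2.64 on the log2 scale (SE 0.17, limma adjusted p = 1.35e-12) and below WT dark by a log2 difference of -1.03. By the mean of the dark mutants, AT5G48490 lay between on the lower side, with signals of 3173, 3243 and 3716 in WT light, 154, 288 and 304 in WT dark and 214 to 1085 (median 769.8) in the dark mutants. That range overlapped WT dark, and csn3-1 differed from csn4-1 by -1.52.

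Where WT dark lay between, the 3 highest were AT2G07722, AT2G07741 and AT2G07739, with differences of 4.99, 4.72 and 4.63, the highest of any probe set naming 1 gene that met every condition of the rule. AT2G07722 had signals of 189.8, 116 and 205 in WT light and 1886 to 15441 (median 7786) in the dark mutants. In WT dark the signals were 395, 1370 and 347 for AT2G07722, 811, 3132 and 966 for AT2G07741 and 214, 1034 and 443 for AT2G07739. For each gene the highest of these came from the WT dark array whose actin ratio was 29.4. The part of that array in their class was not tested, nor whether these probe sets also read other transcripts. With the actin ratio as a covariate AT2G07741 and AT2G07739 were at 3.03 and 2.56. AT5G62280 was at the lowest end of the same class, with signals of 3190.5, 3091 and 3035 in WT light, 1629.7, 545 and 1271 in WT dark and 7.8 to 315 (median 35.4) in the dark mutants, a difference of -5.05 on the log2 scale (SE 0.37, limma adjusted p = 1.15e-11). BZIP61, a bZIP factor, was lower in every dark mutant array, with signals of 1501, 1311 and 1291 in WT light and 11.1 to 93.2 (median 31.8) in the dark mutants, a difference of -4.03 on the log2 scale (SE 0.29, limma adjusted p = 1.16e-11).

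**Figure D5:**
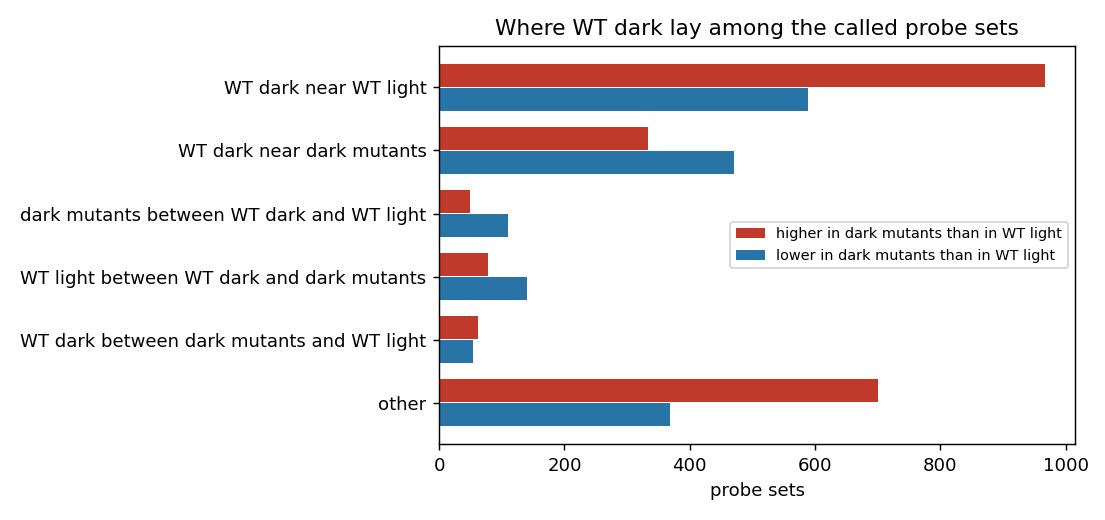
Number of probe sets (x axis) higher or lower in dark mutants than in WT light, by where the WT dark mean lay on the log2 scale. The longest bars are for WT dark near WT light, 967 higher and 589 lower.

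Most of the 132 genes named were picked by their difference or adjusted p in this comparison, so that the 102 called, against 20.9% of all probe sets, follow from the choice. Between dark and light mutants, 16 of the 102 were called, against 2.01% of all probe sets, among them DFR, CHI, petN, rpoB and AT2G05540. The choice used the same dark mutant arrays, so this share cannot be read against that of all probe sets. The 30 genes not called against WT light include CUL4, the scaffold of a cullin ligase, at 0.13 with signals of 1635, 1703 and 1757 in WT light and 1512 to 2837 (median 1822) in the dark mutants.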

How the data were processed

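Signal intensities per probe set came from ATH1 arrays, on a linear scale, and the deposited intensities are MAS5 output of the authors, per the submitters' processing notes. Their scaling target, software version and filters are not given in the sources used. The 3 dark csn3-1 arrays carry the replicate numbers 1, 2 and 1, and the last is counted here as the third.

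A common scale was set (2% trimmed mean of 500), and log2(signal + 50) was used, which understates ratios of dim probe sets. Tests covered the 18751 of 22746 non-control probe sets that reached a signal of 100 in 3 or more arrays. R 4.3.3 with limma 3.58.1 (lmFit, eBayes with trend) fitted 8 group means to the 24 arrays, with Benjamini-Hochberg adjustment over all probe sets tested. The script was tested on simulated data. The number of arrays limits the precision.

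Names came from the platform table, updated through a TAIR10.1 gene table: 13513 probe sets had 1 gene (13436 matched), 503 several and 8730 were unnamed. The 52 lists held 508 loci in the 26 written by locus, of which 104 had their own probe set, and 11 lists had 0 measured genes. Measured means that a probe set naming the gene alone was tested. Named genes were the 10 highest and 10 lowest meeting every condition, 3 highest and 3 lowest per position class, up to 4 (families 3) per list by adjusted p, and the mutated genes. The members and lists were chosen with earlier results of these data known. No column of values per sample was left out (0). Alternatives are in the closing section.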

Additional observations from a re-analysis of the deposited data

Results flagged for a closer look

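The dark mutants differed among themselves at several named genes, by a limma test of the difference itself, with an adjusted p below 0.05 and a size of 1 log2 unit or more. CSN5B was lower in csn3-1 than in the csn5-labelled line by -2.75 and in csn4-1 than in that line by -2.87. LHCB4.2 was lower in csn3-1 than in csn4-1 by -1.11 and than in the csn5-labelled line by -1.17, and STOMAGEN was lower in csn3-1 than in csn4-1 by -1.12. AT4G22490 was lower than in the csn5-labelled line by -1.94 in csn3-1 and by -2.08 in csn4-1.

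In csn3-1 against csn4-1, ICL was higher by 1.13, AT4G12490 by 1.07, AT2G47780 by 1.62, APL3 by 1.35 and AT3G05730 by 1.21, while AT2G29290 differed by -1.07 and AT5G48490 by -1.52. In csn4-1 against the csn5-labelled line, clpP was higher by 1.17 and XTH19 by 1.10, and AT4G12490 differed by -1.44, AT2G47780 by -1.55, APL3 by -1.01, AT3G05730 by -2.03 and JAL33 by -1.23. In csn3-1 against the csn5-labelled line, AT3G01570 differed by -1.20 and XTH16 by -1.08. The genes were named for other reasons, and actin ratios were 17.4 to 31.8 in csn3-1, 17.7 to 20.6 in csn4-1 and 9.04 to 12.2 in the csn5-labelled dark arrays, whose part in these differences was not tested.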

How the results depend on the processing

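With no minimum log2 difference, the mean of the mutants had 5670 probe sets higher and 3971 lower than WT light, csn3-1 had 4894 and 3476, csn4-1 had 5734 and 3393, and the csn5-labelled line had 3690 and 3168. After quantile normalization csn4-1 had 1840 higher and 2319 lower. The actin ratio as a covariate, chosen after seeing the data, gave 1660 higher in csn3-1 and 1725 in csn4-1. It is fitted from the spread of the ratio within groups, over all groups of the series. That spread was widest in WT dark, at 3.45 to 29.4, and light csn4-1, at 11.6 to 45.9, which are outside the comparison. The dark mutants and WT light did not overlap in the ratio, so the adjustment of their difference is an extrapolation. Leaving out 1 array at a time gave 2115 to 2350 higher and 1714 to 1761 lower for the mean, in csn3-1 2274 to 3084 and 1877 to 2025, in csn4-1 2912 to 3482 and 1706 to 1862, and in the csn5-labelled line 1555 to 1714 and 1625 to 1731. With the pseudocount at 16, the mean had 3123 higher and 2060 lower. The cause of these shifts was not tested beyond the settings themselves.

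A replicate block gave 2191 higher and 1732 lower for the mean, the counts without it. Arrays of the same number deviated from their group means with correlations of -0.19 to 0.13 and arrays of different numbers with -0.24 to 0.17, so the numbers were not treated as pairs. Most named genes were picked by their difference or adjusted p in the same arrays, which favours keeping a call. Of the 102 named genes called, 89 kept their call in every setting and 0 reversed, a count that does not extend to other probe sets. Among the named genes not called, some changed sign, such as RCA (-0.84 to 0.35), PDF1.2 (0.47 to -0.23) and AUR2 (0.27 to -0.02) with the actin ratio as a covariate, and BUBR1 (0.08 to -0.22) after quantile normalization. The planned search for promoter motifs was not run, since no promoter sequence was used here. Each group had 3 arrays, signals under 100 cannot be told well from background, and no detection calls were used.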
